A study of Mus musculus with 6 samples.

Results

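The genes described here encode 9 enzymes that make serine, move folate-bound carbon units and build nucleotides: Phgdh, Psat1, Shmt1, Shmt2, Mthfd2, Tyms, Gart, Paics and Cad. They were picked by symbol as a set of pathway enzymes, not by a cutoff on their values, but with earlier results of these data known. All 9 were found among the 40808 Entrez gene IDs of the count table. All 9 passed the filter on low counts that left 14110 genes to test. The libraries hold RNA of mouse spleen, from mice given a bone marrow transplant, and the submitters describe the RNA source as leukaemia cells of that organ. The labels name no strain, age, sex or transgene. There were 3 libraries labelled NO_DOX (replicates 4, 5 and 6), here called without Dox, and 3 labelled ON_DOX (replicates 10, 11 and 12), here called with Dox. Dox is not spelled out, and its dose, its duration and the gene it was meant to control are not given in the labels. Every mouse of both groups carried the transplant. Nothing states that the libraries of a group came from separate animals, so p-values measure the spread between these libraries, which may be technical.

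Serine can be made from the glycolytic intermediate phosphoglycerate, first by PHGDH and then by PSAT1 and PSPH. Its side-chain carbon passes to tetrahydrofolate through serine hydroxymethyltransferase, as SHMT1 in the cytosol and SHMT2 in mitochondria, and MTHFD2 carries the mitochondrial branch on towards formate. Carbon units carried by folate are built into the purine ring, where GART and PAICS act, and into thymidylate, which TYMS makes, while CAD starts the pyrimidine ring. Dividing lymphoid cells are known for high activity of these pathways, antifolates used against lymphoid leukaemia inhibit them, and the transcription factors MYC and ATF4 are known to activate several of their genes.

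All 9 enzyme genes fell with Dox. In a test over all genes (edgeR quasi-likelihood test, p-values adjusted by the Benjamini-Hochberg method, threshold 0.05), 9 of 9 were lower. Of all tested genes, 22.1% were lower, 23.6% were higher and 45.6% passed in either direction. Among genes that passed, 51.6% were higher with Dox, and 64.3% when counts were scaled to library size alone. Their libraries did not overlap between groups in 9 of 9 cases, against 29.6% of tested genes that were lower without overlap. The median log2 fold change of the 9, with Dox minus without, was -2.06 (range -3.44 to -1.43), where the median of all tested genes was 0.07. Because the set was chosen with earlier results of these data known, its counts beside those of all genes are a description only. So many genes differed between these libraries that a call by itself says little about an enzyme, and the sizes and levels below carry the description.

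Total counts were 5541486 to 7729988 without Dox and 6498193 to 8725767 with Dox, and these ranges overlapped. Other measures moved with the groups. T cell markers, 10 genes such as Cd3e and Thy1, summed to 2694 to 2945 CPM without Dox and 180 to 209 CPM with Dox, and 9 of the 10 fell. B cell markers (10 of 10 higher) went from 34.9 to 43.9 CPM up to 1926 to 1982 CPM, and neutrophil markers (10 of 10 higher) from 53.7 to 69.7 CPM up to 2222 to 2363 CPM. Of the defining markers, Ly6g, a neutrophil surface gene, was at 0 counts in every library without Dox. Of 10 macrophage markers 1 rose and 3 fell, of 10 erythroid markers 5 rose and 2 fell, and of 10 stromal markers 4 rose and 2 fell. Of these 17 calls, 8 were lost in at least 1 of 16 alternatives (another scaling, filter or tool, a length correction, or a library left out). Haemoglobin genes took 8.61 to 9.04% of counts without Dox and 14.1 to 15.9% with Dox. Counts of 4 Y-linked genes (Uty, Kdm5d, Ddx3y and Eif2s3y) summed to 545 to 801 counts without Dox and to 0 in each library with Dox. Counts of Xist, which coats the silenced X, were 193 to 324 in the libraries that also held Y-linked counts and 3347 to 5669 in the others. Sex of the donor or recipient cells and Dox therefore cannot be told apart. The part of these differences in the changes below was not tested. In bulk tissue, fewer cells of a type and less RNA per cell cannot be told apart.

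Levels are given as normalized CPM, counts scaled to library size and, by TMM, to library composition. Each fragment of these libraries comes from the 3′ end of an mRNA, so CPM can be set side by side between genes without division by transcript length. The lowest count behind any value of the 9 genes was 15.

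**Figure D1:**
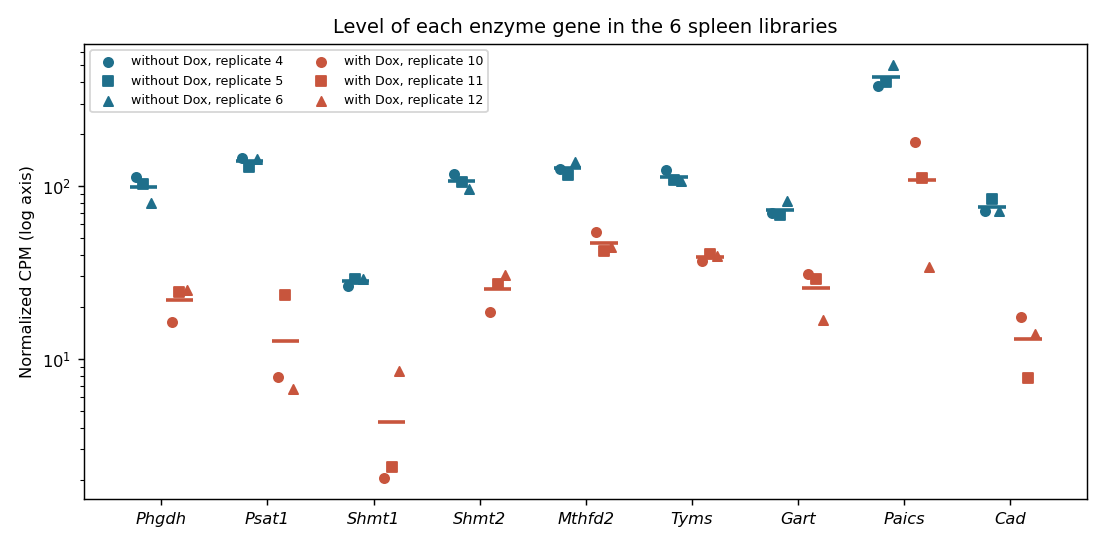
Normalized CPM (log axis) of the 9 enzyme genes in each library; points are single libraries, with a marker shape for each replicate, and horizontal bars are group means of 3 libraries. Every library with Dox lies below every library without Dox for each gene, and the points with Dox spread widest for Shmt1, Paics and Psat1.

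Of the 9 enzymes, the largest fall was in the serine branch. Psat1 (Entrez 107272, GRCm38.p6 chr19:15905123-15925059, minus strand), which transfers the amino group that makes phosphoserine, was at 146, 128 and 144 CPM in replicates 4, 5 and 6 without Dox. With Dox it was at 7.89, 23.4 and 6.72 CPM in replicates 10, 11 and 12. All libraries with Dox were far below all those without, and replicate 11 stood above the other two. Mean levels were 139 ± 9.5 CPM and 12.7 ± 9.3 CPM (SD, n = 3 each), 10.9-fold lower, with a log2 fold change of -3.44 ± 0.43 (SE, edgeR adjusted p = 0.00015). Without replicate 11 of the Dox group the log2 fold change was -4.27. Of all tested genes, 2.35% had a lower log2 fold change.

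The 250 bases upstream of the RefSeq start of Psat1 (GRCm38.p6 chr19:15925060-15925309, minus strand), shown because this gene fell most, hold 2 copies of CCAAT, the letters bound by the factor NF-Y, in capitals, close to the start.
Psat1: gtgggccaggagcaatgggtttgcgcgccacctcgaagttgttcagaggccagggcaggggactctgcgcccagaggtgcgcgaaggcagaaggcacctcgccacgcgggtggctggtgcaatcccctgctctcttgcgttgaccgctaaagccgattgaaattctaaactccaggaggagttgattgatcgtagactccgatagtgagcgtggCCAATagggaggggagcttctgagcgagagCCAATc

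Phgdh (Entrez 236539, chr3:98313171-98339969, minus strand), the first and committed enzyme of serine synthesis, was at 112, 103 and 80.4 CPM without Dox and at 16.3, 24.4 and 25.04 CPM with Dox. The lowest library without Dox was still well above the highest with Dox. Phgdh was 4.49-fold lower, a log2 fold change of -2.17 ± 0.24 (SE, edgeR adjusted p = 6.54e-05). Psph, the phosphatase that releases serine, fell as well, from 35.0 ± 1.6 CPM to 4.25 ± 4.5 CPM (SD, n = 3 each; log2 fold change -3.05, edgeR adjusted p = 0.0038), and its log2 fold change was -4.35 without replicate 10 of the Dox group. All 3 steps of the route from phosphoglycerate to serine were thus lower. Of the 6 other tested genes of serine synthesis and uptake, 3 fell. Beside Psph these were the neutral amino acid transporters Slc38a1, from 257 to 123 CPM, and Slc38a2, from 369 to 178 CPM, whose call was lost in 3 of 16 alternatives (adjusted p up to 0.072). The transporter Slc1a5 was at 67.3 and 53.1 CPM on average (edgeR adjusted p = 0.148).

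The log2 ratio of Phgdh to Psat1 had opposite signs in the groups, though barely so in replicate 11. Their log2 ratio was -0.37, -0.31 and -0.83 in the libraries without Dox and 1.004, 0.061 and 1.82 in those with Dox. Psat1 was the more abundant of the pair in each library without Dox and the less abundant in each library with Dox. In replicate 11 that order rested on 237 counts of Phgdh against 227 of Psat1, which is nearly even. The difference of the means was 1.47 (exact two-sided permutation p = 0.1, the smallest that 3 against 3 libraries allow, and 0.3 after adjustment over the 6 ratios compared).

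Both serine hydroxymethyltransferases fell. Shmt2 (Entrez 108037, chr10:127517123-127522444, minus strand), the mitochondrial enzyme, was at 118, 106 and 95.6 CPM without Dox and at 18.8, 27.3 and 30.6 CPM with Dox. This was 4.17-fold lower, a log2 fold change of -2.06 ± 0.23 (SE, edgeR adjusted p = 6.73e-05). The 3′ end of Shmt2 overlaps that of Ndufa4l2, on the other strand, by 32 bases, and Ndufa4l2 itself had at most 1 count in any library. Shmt1 (Entrez 20425, chr11:60788897-60811265, minus strand), the cytosolic enzyme, had the lowest mean level of the 9 genes in both groups, though in replicate 12 of the Dox group it was above Psat1. It was at 26.3, 29.2 and 28.99 CPM without Dox and at 2.04, 2.37 and 8.57 CPM with Dox, from 15, 23 and 65 counts. Replicate 12 stood above the other libraries with Dox, and without it the log2 fold change went from -2.71 ± 0.52 (SE, edgeR adjusted p = 0.0021) to -3.67. Shmt2 over Shmt1, as a log2 ratio, averaged 1.90 ± 0.23 and 2.66 ± 0.78 (SD, n = 3 each) without and with Dox, and the groups overlapped (exact two-sided permutation p = 0.3).

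The 250 bases upstream of the RefSeq start of Shmt2 (chr10:127522445-127522694, minus strand) are shown because they hold the only match among the 9 genes to the palindromic element bound by the factor NRF1, in capitals.
Shmt2: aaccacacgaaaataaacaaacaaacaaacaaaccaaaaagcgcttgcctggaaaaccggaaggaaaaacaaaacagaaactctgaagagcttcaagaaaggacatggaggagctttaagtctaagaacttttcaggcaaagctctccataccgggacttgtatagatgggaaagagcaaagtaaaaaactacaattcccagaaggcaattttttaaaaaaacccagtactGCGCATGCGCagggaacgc

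Mthfd2 (Entrez 17768, chr6:83305704-83326011, minus strand), the mitochondrial dehydrogenase and cyclohydrolase of the folate branch, fell least of the 9. It was at 126, 116 and 138 CPM without Dox and at 54.4, 42.3 and 44.5 CPM with Dox, 2.69-fold lower (log2 fold change -1.43 ± 0.18 (SE), edgeR adjusted p = 0.00018). The groups lay apart, with a narrow spread in each. Its cytosolic counterpart Mthfd1, which combines 3 folate activities in a single protein, fell from 60.5 ± 13 to 25.6 ± 3.1 CPM (SD, n = 3 each; edgeR adjusted p = 0.0016). Mthfd2 over Mthfd1 averaged 1.08 ± 0.33 and 0.87 ± 0.37 (log2 ratio, SD, n = 3 each) without and with Dox, and the groups overlapped (exact two-sided permutation p = 0.6).

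Around these members, 4 of 7 other tested genes of mitochondrial folate metabolism fell. Mthfd1l, which releases formate from mitochondria, went from 104 ± 27.7 to 37.1 ± 4.0 CPM (SD, n = 3 each; log2 fold change -1.49, edgeR adjusted p = 0.00052). The serine transporter of mitochondria, Sfxn1, went from 170 to 75.1 CPM on average. The remaining ones were the glycine cleavage genes Gcsh, whose call was lost in 5 of 16 alternatives (adjusted p up to 0.189, and a log2 fold change of -0.71 in place of -1.44 with the length trend removed), and Dld, lost in 4 of 16 (up to 0.090). In the cytosol, 3 of 7 other tested folate genes fell, among them Mthfd1 and Slc19a1, the reduced folate carrier, at 20.8 ± 1.4 and 6.57 ± 3.1 CPM (SD, n = 3 each; edgeR adjusted p = 0.0062). Of 8 tested genes of the methionine cycle and methylthioadenosine salvage 4 fell, led by Mtap, the methylthioadenosine phosphorylase, from 136 ± 11.7 to 9.73 ± 3.8 CPM (SD, n = 3 each; log2 fold change -3.82, edgeR adjusted p = 1.07e-05). The methionine adenosyltransferase gene Mat2a, at 188 and 144 CPM on average, did not pass the threshold (edgeR adjusted p = 0.075).

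Tyms (Entrez 22171, chr5:30038546-30073645, minus strand), thymidylate synthase, was at 124, 108 and 107 CPM without Dox and at 36.9, 40.2 and 39.3 CPM with Dox. It was the only one of the 9 whose libraries varied less with Dox (coefficient of variation 4.46%) than without (8.21%). It was 2.91-fold lower, a log2 fold change of -1.54 ± 0.17 (SE, edgeR adjusted p = 7.60e-05). The pseudogene Tyms-ps had at most 4 counts in a library.

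The 250 bases before the start of Tyms used in the promoter table (chr5:30073626-30073875, minus strand), whose last bases lie within the full extent of the gene given above, and 30 bases upstream of Paics (chr5:76951087-76951116, plus strand) are shown because these are the members with CACGTG, the E-box that MYC and MAX can bind, in capitals.
Tyms: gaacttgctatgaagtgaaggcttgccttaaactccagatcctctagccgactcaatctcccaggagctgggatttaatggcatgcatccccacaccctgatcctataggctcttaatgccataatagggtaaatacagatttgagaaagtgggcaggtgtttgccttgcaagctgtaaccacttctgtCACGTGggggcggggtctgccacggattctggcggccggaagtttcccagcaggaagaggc
Paics: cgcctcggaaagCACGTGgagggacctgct

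The sequences come from RefSeq promoters of GRCm38.p6, in which all 9 genes matched with 10 windows (Psat1 has 2). The stretch shown for Paics lies within the gene Ppat (chr5:76913249-76951578, minus strand), and the 250-base window of Paics overlaps an annotated exon. Within the 250 bases before each start, on both strands, CACGTG was found in 2 of the 10 windows and in 6.02% of 32841 windows of all genes, and the NRF1 element, spelled as the capitals of Shmt2, in 1 of 10 and 0.783%. The CCAAT letters were found in 6 of 10 and 33.9%. TGATGCAA, a form of the element bound by ATF4 with a CEBP partner, was in 0 of 10 windows and in 0.792% of all, and TTTCCCGC, a form of the E2F site, in 0 of 10 and 0.895%. The motifs were chosen after the counts were seen, and a match describes letters only and shows no binding.

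In purine synthesis, Paics (Entrez 67054, chr5:76951302-76967509, plus strand), a bifunctional enzyme of the middle of the pathway, had the highest mean of the 9 in both groups, though in replicate 12 of the Dox group it was below Mthfd2 and Tyms. It was at 382, 398 and 504 CPM without Dox and at 180, 111 and 34.3 CPM with Dox. The libraries with Dox differed among themselves by 5.25-fold, the widest range of the 9, and lay below every library without Dox. The log2 fold change was -1.98 ± 0.46 (SE, edgeR adjusted p = 0.0059), and it was -2.58 without replicate 10 and -1.57 without replicate 12 of the Dox group. Gart (Entrez 14450, chr16:91621395-91646972, minus strand), a trifunctional enzyme of the earlier steps and one of those that consume formyl folate, was at 69.7, 68.1 and 81.7 CPM without Dox and at 30.9, 29.1 and 16.9 CPM with Dox. It was 2.85-fold lower (log2 fold change -1.51 ± 0.26 (SE), edgeR adjusted p = 0.00098). In both genes replicate 12 was the lowest library. Paics over Gart averaged 2.53 ± 0.087 and 1.81 ± 0.77 (log2 ratio, SD, n = 3 each) without and with Dox, and the groups overlapped (exact two-sided permutation p = 0.2).

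The rest of the purine pathway moved in the same direction. Of 11 other tested genes, 10 fell. In the order of the pathway, mean levels went from 107 to 29.7 CPM for Prps1, which makes the ribose donor, and from 67.0 to 24.8 CPM for Ppat, the committed step, whose gene overlaps the start of Paics on the opposite strand by 277 bases. Pfas went from 56.4 to 26.5 CPM. Next came Adsl, 48.6 to 8.76 CPM, and Atic, which closes the ring, 129 to 48.1 CPM. At the branch to guanine nucleotides, Impdh2 went from 53.8 to 12.9 CPM and Gmps from 77.9 to 43.5 CPM, the smallest fall of the 10 (log2 fold change -0.84 ± 0.21 (SE), edgeR adjusted p = 0.0080, and up to 0.055 in 1 of 16 alternatives, which lost the call). With the length trend removed, the log2 fold change of Gmps was -1.45. Impdh1 had the largest, from 33.6 ± 4.5 to 5.1 ± 5.5 CPM (SD, n = 3 each; log2 fold change -2.69, edgeR adjusted p = 0.010), and its log2 fold change was -4.08 without replicate 11 of the Dox group. The muscle form of adenylosuccinate synthase, Adssl1, at 6.03 and 4.46 CPM, did not pass the threshold.

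Purine salvage was divided. Of 8 tested genes 3 fell and 3 rose, where 22.1% of all tested genes were lower and 23.6% higher. Hprt, which recovers hypoxanthine and guanine, fell from 142 ± 6.0 to 34.3 ± 12.3 CPM (SD, n = 3 each; log2 fold change -2.05, edgeR adjusted p = 0.00013), while Aprt and Adk were the other two that fell. The calls of Aprt and Adk were lost in 3 and 5 of 16 alternatives (adjusted p up to 0.446 and 0.153), and the log2 fold change of Aprt ranged from -2.39 to -0.44 over them. The genes that rose act in purine breakdown: Xdh, xanthine dehydrogenase, from 4.26 ± 2.3 to 44.4 ± 13.2 CPM (SD, n = 3 each; log2 fold change 3.36, edgeR adjusted p = 0.00015), the guanine deaminase Gda, from 107 to 301 CPM, and the nucleoside phosphorylase Pnp2. With a trend of the libraries with transcript length removed, the log2 fold change of Hprt was -1.20, that of Xdh 2.77 and that of Pnp2 1.91. The call of Pnp2 was lost in 7 of 16 alternatives (adjusted p up to 0.157). Pnp2 has a close copy, Pnp, so the split of reads between them is uncertain.

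Cad (Entrez 69719, chr5:31054620-31078479, plus strand), a single protein with the first enzyme activities of pyrimidine synthesis, was at 72.1, 84.5 and 71.7 CPM without Dox and at 17.4, 7.72 and 14.0 CPM with Dox. No library with Dox came near the range without. It was 5.86-fold lower, a log2 fold change of -2.55 ± 0.30 (SE, edgeR adjusted p = 0.00010). Cad has the longest transcript of the 9, at 7137 bases, and the 1200 tested genes of the longest length class, to which it belongs, had a median log2 fold change of 0.68. Cad shares 14 bases with Atraid on the same strand, which had 54 to 183 counts in a library. Umps, which completes the pyrimidine ring nucleotide, fell alongside from 40.5 ± 2.8 to 5.81 ± 3.2 CPM (SD, n = 3 each; edgeR adjusted p = 0.00030). Cad over Umps averaged 0.90 ± 0.22 and 1.15 ± 1.23 (log2 ratio, SD, n = 3 each) without and with Dox, and the groups overlapped (exact two-sided permutation p = 0.9). This difference of 0.25 changed sign without replicate 10 (-0.04) or replicate 12 (-0.17) of the Dox group.

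**Figure D2:**
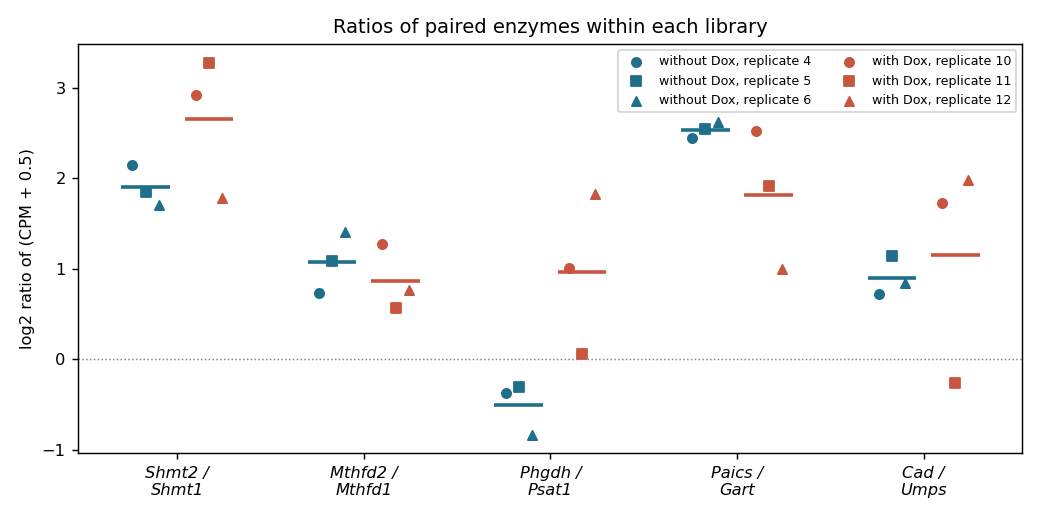
The log2 ratio of 2 enzyme genes within each library, with 0.5 CPM added to each gene; points are single libraries and bars are group means of 3 libraries. Libraries of the groups do not overlap for Phgdh to Psat1, and they overlap for the other 4 ratios shown.

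Of 8 other tested pyrimidine genes 4 fell and 2 rose. Nme2, a nucleoside diphosphate kinase, had the largest fall, from 383 ± 14.3 to 32.7 ± 5.2 CPM (SD, n = 3 each; log2 fold change -3.55, edgeR adjusted p = 1.51e-06), against -1.64 for its near copy Nme1, so the share of reads between this pair is uncertain. With the length trend removed, Nme2 was at -2.51. Of the CTP synthases, Ctps fell from 37.8 to 9.04 CPM and Ctps2 rose from 7.80 to 18.3 CPM on average, though the call of Ctps2 was lost in 4 of 16 alternatives (adjusted p up to 0.111). Cmpk2, a kinase also induced by interferon, rose from 8.78 ± 3.3 to 25.3 ± 13.8 CPM (SD, n = 3 each; log2 fold change 1.52, edgeR adjusted p = 0.019). The call of Cmpk2 was lost without replicate 5 (adjusted p = 0.083) or 6 (adjusted p = 0.10) of the group without Dox and without replicate 12 of the Dox group (adjusted p = 0.068).

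Genes that supply deoxynucleotides followed Tyms in part. Of 14 others tested, 9 fell, 2 rose and 3 did not pass the threshold. Dut, the dUTPase that makes the substrate of TYMS, fell from 679 ± 18.0 to 138 ± 3.6 CPM (SD, n = 3 each; log2 fold change -2.30, edgeR adjusted p = 2.82e-06). Dctd, the dCMP deaminase of the same supply line, had 33 to 61 counts without Dox and 2 to 5 with Dox (log2 fold change -4.01 ± 0.74 (SE), edgeR adjusted p = 0.0016, and 0.0502, past the threshold no longer, by limma-voom with group weights). The ribonucleotide reductase subunit Rrm2 fell from 186 to 99.8 CPM, whereas the large subunit Rrm1, at 262 and 234 CPM, did not pass the threshold (edgeR adjusted p = 0.48). Samhd1, which breaks down deoxynucleotides and is known for high levels in myeloid cells, rose from 27.4 ± 4.7 to 245 ± 23.9 CPM (SD, n = 3 each; log2 fold change 3.16, edgeR adjusted p = 2.83e-06). The mitochondrial thymidine kinase Tk2 also rose, while the cytosolic kinase Tk1 fell from 119 to 45.0 CPM.

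**Figure D3:**
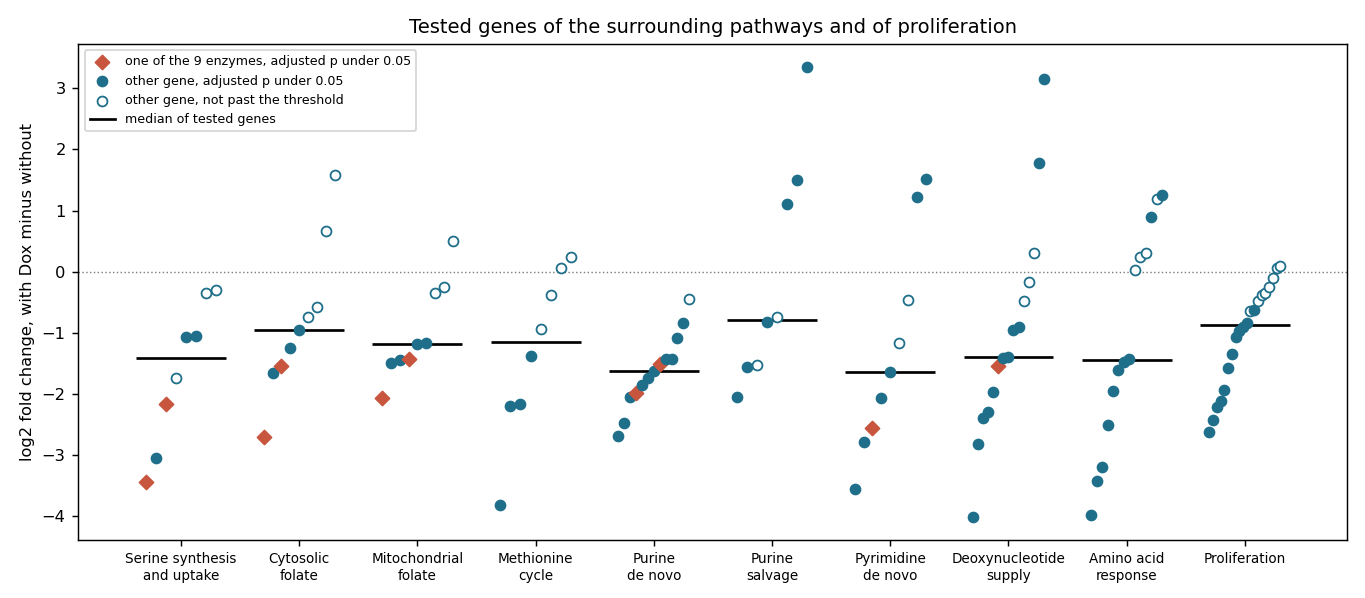
The log2 fold change, with Dox minus without, of each tested gene in the surrounding pathway lists and in a proliferation list; diamonds are the 9 enzymes, filled symbols passed an adjusted p of 0.05, and black lines are medians. Purine synthesis has 12 of 13 genes lower, and the genes that rose stand in purine salvage, pyrimidine, deoxynucleotide and amino acid response lists.

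Over all 9 pathway lists, 82 genes other than the members were tested, of which 47 (57.3%) fell and 9 rose. Their log2 fold changes had a median of -1.17. Of all tested genes, 22.1% were lower and 23.6% higher, and these are also the shares to set beside the counts of each list. The number that rose was 5 without replicate 5 or without replicate 6 of the group without Dox. Among these 56 calls, 14 were lost in at least 1 alternative. The lists were chosen with earlier results of these data known, so their counts are a description.

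The regulators known to act on these enzymes moved in opposite directions. Myc went from 123 ± 14.2 to 8.24 ± 1.0 CPM (SD, n = 3 each; log2 fold change -3.89, edgeR adjusted p = 1.9e-06). Atf4, the transcription factor of the amino acid response, was at 147, 159 and 147 CPM without Dox and at 309, 229 and 303 CPM with Dox. All libraries with Dox were higher, a log2 fold change of 0.89 ± 0.17 (SE, edgeR adjusted p = 0.0018). Of 14 tested genes of the amino acid response, 8 fell and 2 rose. Those that fell included Asns, asparagine synthetase, from 24.1 to 8.73 CPM (call lost in 2 of 16 alternatives), and Chac1, a glutathione-degrading enzyme, with 34 to 58 counts without Dox and 11, 0 and 0 with Dox (edgeR adjusted p = 0.027). Its call was lost without any single library of the group without Dox (adjusted p = 0.071 to 0.10). Eif2ak4, the kinase that senses uncharged tRNA, rose by a log2 fold change of 1.25 (edgeR adjusted p = 0.034). Its call was lost without any single library of the group without Dox (adjusted p = 0.084 to 0.15), without replicate 12 of the Dox group (0.13), with limma-voom (0.082) and with the length trend removed (0.091).

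Proliferation genes are given beside the enzymes because nucleotide synthesis is known to rise in dividing cells. Of 20 such genes 12 fell (60.0%, against 22.1% of all tested genes) and 8 did not pass the threshold. Their median was -0.87 on the log2 scale. Of the 12 calls, 3 were lost in at least 1 alternative. The summed level of the 20 was 5715 to 6277 CPM without Dox and 3862 to 4451 CPM with Dox, whereas that of the 9 enzymes was 1141 to 1252 CPM without Dox and 365, 308 and 220 CPM with Dox. Top2a, at 1537 and 1299 CPM on average without and with Dox, and Mki67 had the highest levels of the list and weighed most on its sum. Log2 fold changes in the list ranged from -2.61 for Pcna, from 463 to 75.7 CPM, to 0.09 for Mki67. Aurkb (-2.43), Mcm4 (-2.12) and Ccnb1 (-1.93) also fell within the range of the 9 enzymes. Mki67, a proliferation antigen, was at 895 ± 71.9 and 954 ± 221 CPM (SD, n = 3 each), and the groups overlapped (log2 fold change 0.09 ± 0.18 (SE), edgeR adjusted p = 0.70). With the length trend removed Mki67 was lower with Dox, at -0.70 (adjusted p = 0.0034), and its sign also changed in 3 other alternatives. Across 11992 tested genes with a known transcript length, the log2 fold change rose with length (Spearman's rho 0.282, across genes, which are not independent). With this trend removed, the 9 enzymes had log2 fold changes from -3.22 for Psat1 to -1.03 for Mthfd2, and all 9 stayed past the threshold.

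**Figure D4:**
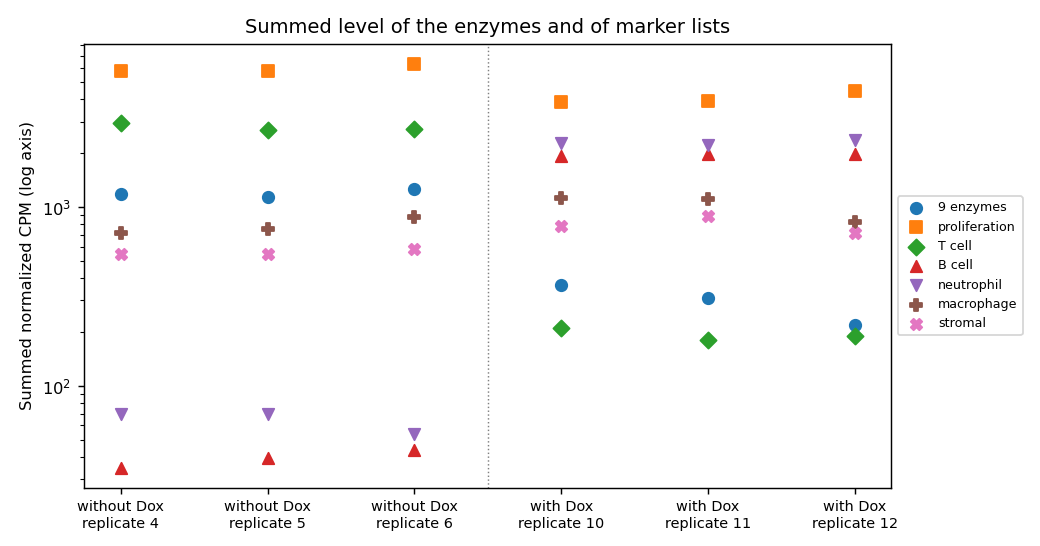
Summed normalized CPM (log axis) of the 9 enzymes and of marker lists in each library; the erythroid list is left out, each point is 1 library and the dotted line parts the groups. The enzymes and the T cell markers are lower in the libraries with Dox, and the B cell and neutrophil markers are higher.

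The members differed in how far they fell. From the largest to the smallest fall the order was Psat1, Shmt1, Cad, Phgdh, Shmt2, Paics, Tyms, Gart and Mthfd2. Of all tested genes, 16.6% had a lower log2 fold change than Mthfd2, 8.92% lower than Shmt2 and 4.44% lower than Shmt1. Differences between neighbours in this order were not tested.

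**Figure D5:**
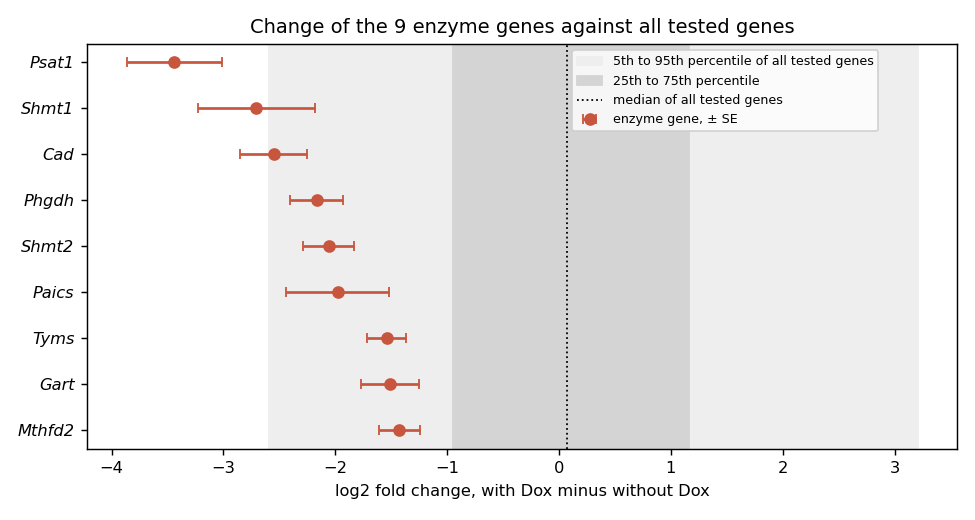
The log2 fold change of each enzyme gene (point, with its SE from edgeR as the bar), with Dox minus without, over grey bands for the percentiles of all 14110 tested genes. All 9 points lie left of the band that holds the middle of the tested genes, and Psat1 (-3.44) and Shmt1 (-2.71) lie left of the wider band.

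The order of levels differed between groups. Without Dox, Paics came first at 428 ± 66.5 CPM and Shmt1 last at 28.1 ± 1.6 CPM (SD, n = 3 each), both apart from their neighbours. Between them, from Psat1 through Mthfd2, Tyms, Shmt2, Phgdh and Cad to Gart, each gene overlapped the next over its libraries. With Dox, the mean of Psat1 stood second last, but its libraries overlapped those of Cad above it and Shmt1 below it. Mthfd2, at 47.1 ± 6.5 CPM (SD, n = 3), and Tyms, at 38.8 ± 1.7 CPM (SD, n = 3), stood apart from the genes next below them. The spread was wider with Dox: the highest library exceeded the lowest by more than 2-fold in 4 of the 9 genes (Psat1, Shmt1, Paics and Cad) with Dox and in 0 of 9 without. No library was lowest throughout, as replicate 10 was lowest with Dox for Phgdh, Shmt1, Shmt2 and Tyms, replicate 11 for Mthfd2 and Cad, and replicate 12 for Psat1, Gart and Paics.

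The genes whose profile over the 6 libraries was most like the mean of the 9 enzymes were Dut, Mia2, Mcm6, Cbx1 and Ranbp1, among 7046 genes of at least median level. Their root mean square differences from it, on the scale of centred log2 CPM, were 0.057 to 0.077. Log2 fold changes of these 5 genes were -2.30 to -2.17, so the likeness mostly reflects a group difference of similar size. Shared regulation was not tested. Of the members themselves, Phgdh (0.254) and Shmt2 (0.254) were nearest and Psat1 (0.864) farthest. Mcm6, a subunit of the replicative helicase, was at 181 ± 7.1 and 39.0 ± 2.2 CPM (SD, n = 3 each). Dut belongs to the deoxynucleotide list, and Mcm6 to the proliferation list. Ranbp1, a regulator of nuclear transport, had a log2 fold change of -2.17, and of -1.18 with the length trend removed.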

How the data were processed

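The authors deposited raw counts per Entrez gene ID, 1 column per library, with 0 columns left unmatched to a sample. STAR, featureCounts and the build GRCm38 are named in the submitters' processing notes, while settings, strand, annotation, reads with several places and molecular identifiers are not given in the sources used here. Libraries were 3′ mRNA libraries (QuantSeq, forward), per the labels' protocols. Symbols, positions and promoters came from RefSeq for GRCm38.p6 (39374 gene IDs, 96.5%, had a symbol), and transcript lengths (the longest per gene) from GENCODE M21.

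Genes with low counts were dropped by filterByExpr (minimum count 10, total 15), and the rest were TMM-scaled and tested with edgeR 4.0.16 (quasi-likelihood F-test) in R 4.3.3, with Benjamini-Hochberg adjustment over all 14110 tested genes. Replicate pairs differed by more than counting noise (chi-square per degree of freedom 7.51 or more), so no library was treated as deposited more than once, which does not show that they came from separate animals. A floor of 3 counts was 0.309 to 0.608 normalized CPM, covering counting error only. Ratios used CPM plus 0.5 and an exact permutation test.

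Alternatives were RLE, upper-quartile and size-only scaling, other filters, DESeq2 1.42.0, the removal of mitochondrial, haemoglobin and antigen receptor genes, limma-voom (limma 3.58.1) with and without group weights, a threshold of 0.01, a pseudocount of 1, and leaving out each library. Removing the length trend (lowess span 0.3) was chosen after seeing the data. The test was tested on simulated data.

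The members and lists were chosen with earlier results of these data known. Named genes were the 9 members, the gene with the largest change past the threshold in each direction of each pathway list, the ratio enzymes, Myc, Atf4, Mki67 and the 5 most alike profiles. The remaining genes were chosen after their values were seen. One of the 6 ratios, and the gene it needs, are not reported here.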

Additional observations from a re-analysis of the deposited data

How the results depend on the processing

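The 9 enzymes stayed lower and past the threshold in all 17 alternatives (153 of 153 values), with log2 fold changes from -4.27 to -1.03. Without composition scaling (library size only), the all-gene median shifted by 0.31, that of the enzymes went from -2.06 to -1.75, and the share of called genes higher with Dox from 51.6% to 64.3%. That share was 45.1% with limma-voom and 44.7% with no filter on counts. At an adjusted p-value under 0.01, 2200 genes in place of 3324 were higher with Dox, and 5 in place of 9 other pathway genes. Leaving out 1 library gave 5 to 8 such pathway genes and a Cad to Umps log2 difference of -0.17 to 0.96. Mki67, which did not pass the threshold, changed sign to -0.054 without a low-count filter, -0.066 without replicate 6 of the group without Dox, -0.131 without replicate 12 of the Dox group, and -0.70 with the length trend removed, and leaving out 1 library gave it values from -0.131 to 0.178. Of 404 values of other named genes, 17 lost their call and 383 kept direction and call. No paired analysis was possible because replicates 4 to 6 stood only without Dox and 10 to 12 only with it. Genes under about 10 counts in a library, such as Dctd and Chac1, are limited by depth.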
